A study of Mus musculus with 6 samples.

Results

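Serpins are a superfamily of proteins, most of which inhibit serine proteases by acting as bait that traps the enzyme in a covalent complex. The family was followed here as 56 probe sets of 45101 on the array, namely those that the platform annotation assigns to a single gene symbol beginning with Serpin. They stand for 40 genes, of which 14 belong to clade A, 18 to clade B and 8 to the remaining clades. A further 3 probe sets carry several symbols, at least 1 of them a serpin, and were left out of the tests. The samples were whole spleens of 6 Balb/c mice aged 6 to 8 weeks, each hybridized to an Affymetrix Mouse430_2 array. The PFOS group was 3 mice given perfluorooctane sulfonate, a persistent fluorinated surfactant, by stomach tube every day for 3 weeks, at a daily dose of 10 mg per kg of body weight. The control group was 3 untreated mice, for which the labels mention no vehicle. The study compared these groups to learn which transcripts differ after exposure.

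Clade A holds secreted serpins, many of them made by hepatocytes and released into plasma, with alpha-1-antitrypsin as the type member. Clade B serpins lack a classical signal peptide and act mostly inside cells, and several protect leukocytes from their own granule proteases. The liver makes further plasma serpins of clades C, D, F and G, which control coagulation, fibrinolysis and complement. In the mouse several of these genes have been duplicated into local clusters: RefSeq places 13 of the 14 clade A genes on chromosome 12, and 11 of the 18 clade B genes on chromosome 13 with the other 7 on chromosome 1.

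Values are RMA log2 values, which are relative to the whole distribution of an array, so that a difference of 1 is a doubling. Markers of the labelled tissue were high, and the B cell list averaged 10.89 to 10.90 on PFOS arrays and 10.44 to 10.46 on control arrays. The mice are labelled female, but on all 6 arrays the Y-linked gene Eif2s3y lay between 9.62 and 9.91 and Xist between 5.62 and 5.86, which goes against the label in both groups alike. Bacterial transcripts added before labelling were lower by 0.48 in PFOS, at 5.81 in PFOS and 6.29 in control. Of 13101 genes tested, limma called 66.6% at an adjusted p under 0.05, 40.6% as higher and 26% as lower in PFOS, so a call alone sets no gene apart. Replicates are labelled as biological, and the p-values measure only the spread between these arrays.

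Of the 40 serpin genes, 19 passed the filter on low values, a mean log2 value of 5.62 over the 6 arrays, and 21 lay under it with every probe set. Among the 19, limma called 8 lower (42.1%) and 10 higher (52.6%), against 26% and 40.6% of all genes, and Serpinf1 was not called. PFOS and control arrays did not overlap for 18 of the 19, against 71.1% of all genes tested. Called falls of at least 2-fold were found for 2 of the 19, Serpina1c and Serpinc1, against 2.92% of all genes. The median change of the 19 was 0.10 on the log2 scale, and that of all genes 0.05. A gene high in a single group can pass the filter through that group, so these counts describe the genes that passed and not the family. Whether there were fewer cells of a type or less RNA per cell cannot be told apart in whole tissue.

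**Figure D1:**
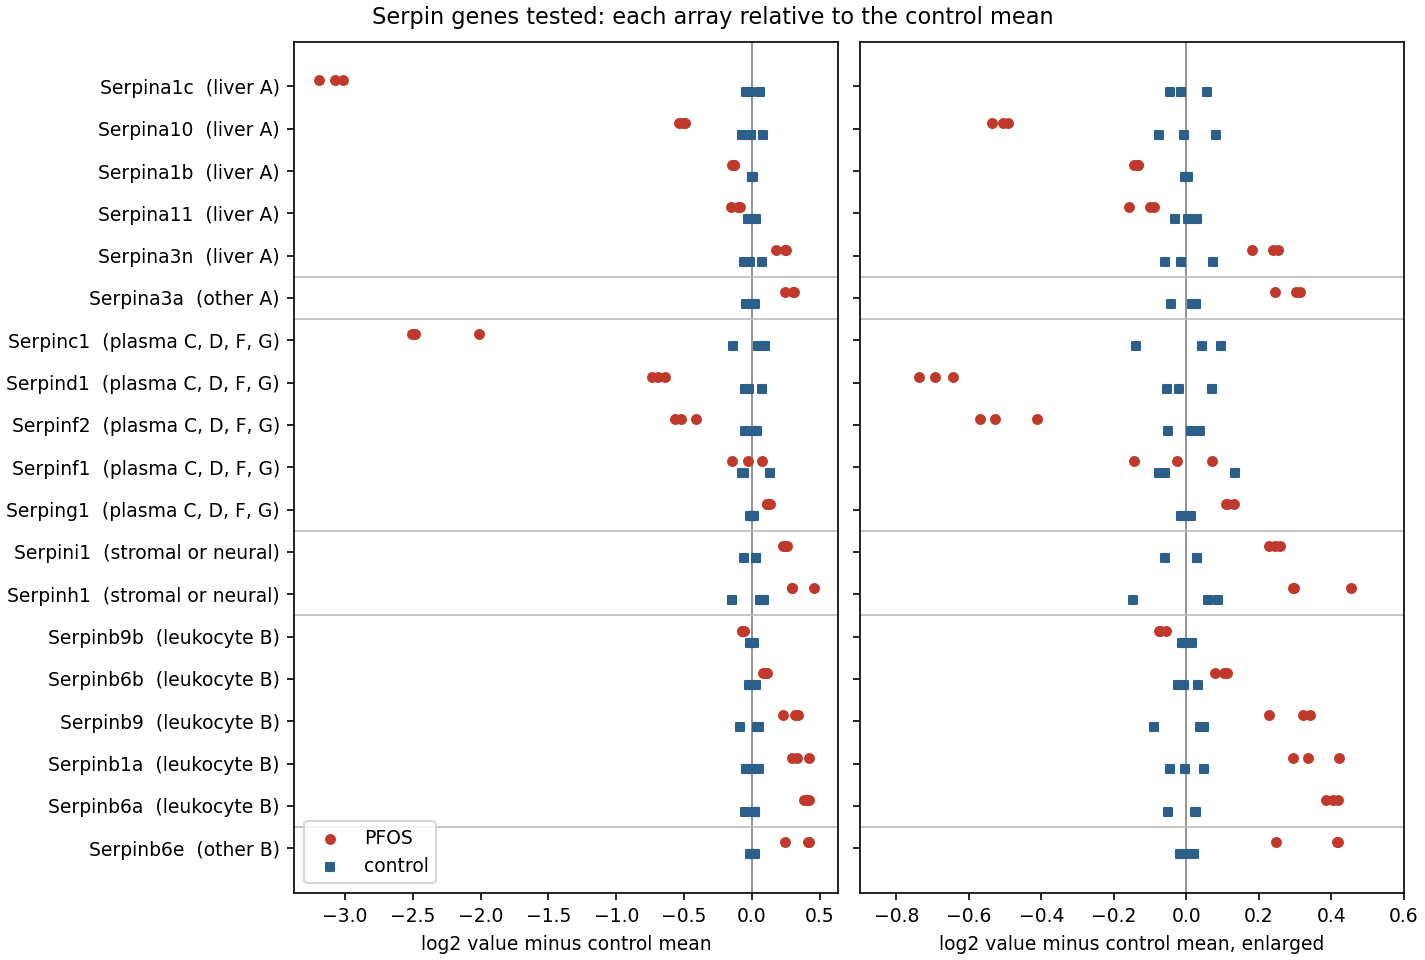
RMA log2 value of each array minus the control mean of the gene (horizontal axis) for the 19 serpin genes tested, with red circles for the 3 PFOS arrays and blue squares for the 3 control arrays; the right panel enlarges the smaller changes. Serpina1c and Serpinc1 lie far to the left in PFOS, and Serpinf1 is the gene whose groups overlap.

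Serpina1c, which encodes an alpha-1-antitrypsin, the main plasma inhibitor of neutrophil elastase, fell more than any other serpin tested. Its log2 values were 8.05, 8.22 and 8.16 in PFOS spleens, against 11.19, 11.22 and 11.29 in control spleens. Every PFOS array lay about 3 log2 units under every control array. The change was -3.09 ± 0.05 (SE, n = 3 each), or 8.53-fold lower (limma adjusted p = 1.15e-08), and it was the 16th largest fall of the 13101 genes. The PFOS mean of 8.14 remained above the filter floor of 5.62.

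Serpina1b, a second alpha-1-antitrypsin gene of the same cluster, differed far less. It had 11.60, 11.61 and 11.61 in PFOS spleens and 11.74, 11.75 and 11.75 in control spleens. The groups did not overlap, but the change was only -0.14 ± 0.02 (limma adjusted p = 0.000957), and its second probe set gave -0.16. Both probe sets bear the suffix _x_at, which marks probes that can also match other transcripts, so this signal cannot be assigned to Serpina1b alone. Of the 3 probe sets left out for carrying several symbols, 1 differed by -2.12, 1 by -0.30 and 1 by 0.10.

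The promoter windows of these genes are shown because Serpina1c and Serpina1b have closely similar upstream sequences. Their signals changed unequally, although that of Serpina1b cannot be assigned to this gene alone. Each window runs from 250 bases before to 50 bases after the annotated start (RefSeq, GRCm38.p6), 5′ to 3′ on the strand of the gene. Capitals mark the letters GTTAAT on either strand, part of the site bound by HNF1, a transcription factor of liver, gut and kidney. Serpinc1 and Serpinb9, described further on, are given as a fallen plasma serpin and a risen leukocyte serpin whose windows lack these letters.
Serpina1c, chr12:103904901-103905200, minus strand: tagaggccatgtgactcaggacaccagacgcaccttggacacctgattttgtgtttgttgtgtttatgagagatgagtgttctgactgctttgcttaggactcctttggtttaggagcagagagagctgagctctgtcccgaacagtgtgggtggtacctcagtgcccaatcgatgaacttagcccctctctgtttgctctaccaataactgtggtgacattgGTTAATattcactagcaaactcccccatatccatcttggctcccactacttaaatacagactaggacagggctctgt
Serpina1b, chr12:103738140-103738439, minus strand: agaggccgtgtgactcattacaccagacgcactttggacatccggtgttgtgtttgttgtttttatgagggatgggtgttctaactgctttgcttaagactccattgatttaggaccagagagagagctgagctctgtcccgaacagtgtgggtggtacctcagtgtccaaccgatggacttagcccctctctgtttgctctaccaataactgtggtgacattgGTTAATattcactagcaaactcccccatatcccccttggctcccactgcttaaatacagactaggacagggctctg
Serpinc1, chr1:160978333-160978632, plus strand: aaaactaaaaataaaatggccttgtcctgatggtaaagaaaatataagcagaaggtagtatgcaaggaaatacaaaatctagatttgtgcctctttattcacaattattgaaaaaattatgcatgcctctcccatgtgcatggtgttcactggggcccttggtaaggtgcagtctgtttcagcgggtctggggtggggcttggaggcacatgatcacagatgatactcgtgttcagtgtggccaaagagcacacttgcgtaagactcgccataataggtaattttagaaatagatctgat
Serpinb9, chr13:33004291-33004590, plus strand: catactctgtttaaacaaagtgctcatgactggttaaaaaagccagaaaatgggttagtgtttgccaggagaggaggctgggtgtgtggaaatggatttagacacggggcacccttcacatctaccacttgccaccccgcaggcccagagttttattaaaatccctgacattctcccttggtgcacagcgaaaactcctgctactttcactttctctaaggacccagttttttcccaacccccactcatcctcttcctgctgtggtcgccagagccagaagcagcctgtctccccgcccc

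The windows of Serpina1c and Serpina1b were 91.4% identical in a global alignment, with 276 identical positions, 22 mismatches and 4 gap positions. Each holds GTTAAT once, beginning at position -27 in Serpina1c and -26 in Serpina1b, counted from the start site as 0. GTTAAT was present in 7.1% of the 32851 promoter windows of the table, or in 8.24% of its 27025 genes. Windows were available for 34 of the 40 serpin genes, and 5 of the 34 held the letters. They were found in 3 of 5 liver clade A genes (Serpina1b, Serpina1c and Serpina7), in 1 of 6 leukocyte clade B genes (Serpinb8) and in 0 of 4 plasma serpins of other clades. The remaining gene was Serpini2, a serpin of the pancreas, with 3 matches. These counts cover the genes with a window, whether or not they passed the filter. Serpina10, Serpinb1a and Serping1, which were tested, had no window, and Serpina7 and Serpinb8 lay under the filter floor. A match describes letters only.

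The other clade A genes of the liver list moved by less, and not all in one direction. Serpina10, which inhibits coagulation factor Xa together with protein Z, had 7.08, 7.12 and 7.11 in PFOS spleens and 7.70, 7.61 and 7.54 in control spleens. It fell by 0.51 ± 0.04 on the log2 scale (limma adjusted p = 2.76e-05), with no overlap between groups. Its sole probe set ends in _s_at, so the gene dropped out when _s_at, _x_at and _a_at probe sets were left out. Serpina11 had 5.61, 5.54 and 5.60 in PFOS spleens and 5.70, 5.67 and 5.73 in control spleens, so its PFOS mean of 5.58 lay under the floor. Its change of -0.12 ± 0.03 passed the test (limma adjusted p = 0.0102) but not with a trended, robust variance prior (limma adjusted p = 0.0596).

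Serpina3n, an acute phase inhibitor that can block granzyme B, went the other way from these genes. It had 8.12, 8.05 and 8.11 in PFOS spleens, against 7.85, 7.94 and 7.81 in control spleens, a rise of 0.22 ± 0.04 (limma adjusted p = 0.00173). Serpina3a, a neighbour from the same expanded Serpina3 group, rose by 0.29 ± 0.03 (limma adjusted p = 0.00013), with means of 7.19 ± 0.04 in PFOS and 6.91 ± 0.04 in control (SD, n = 3 each).

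Across the 5 liver clade A genes tested, 4 were lower and 1 higher, against 26% and 40.6% of all genes. The median of the 5 was -0.14. The median turned to 0.34 when arrays were scaled on the labelling spikes, a scaling that raised the median of all genes to 0.53. This scaling adds nearly the same constant to every gene, so the liver list median was bound to stay under the median of all genes. Serpina1c is the gene that separates this list from small changes: the other 3 falls were -0.12, -0.14 and -0.51.

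**Figure D2:**
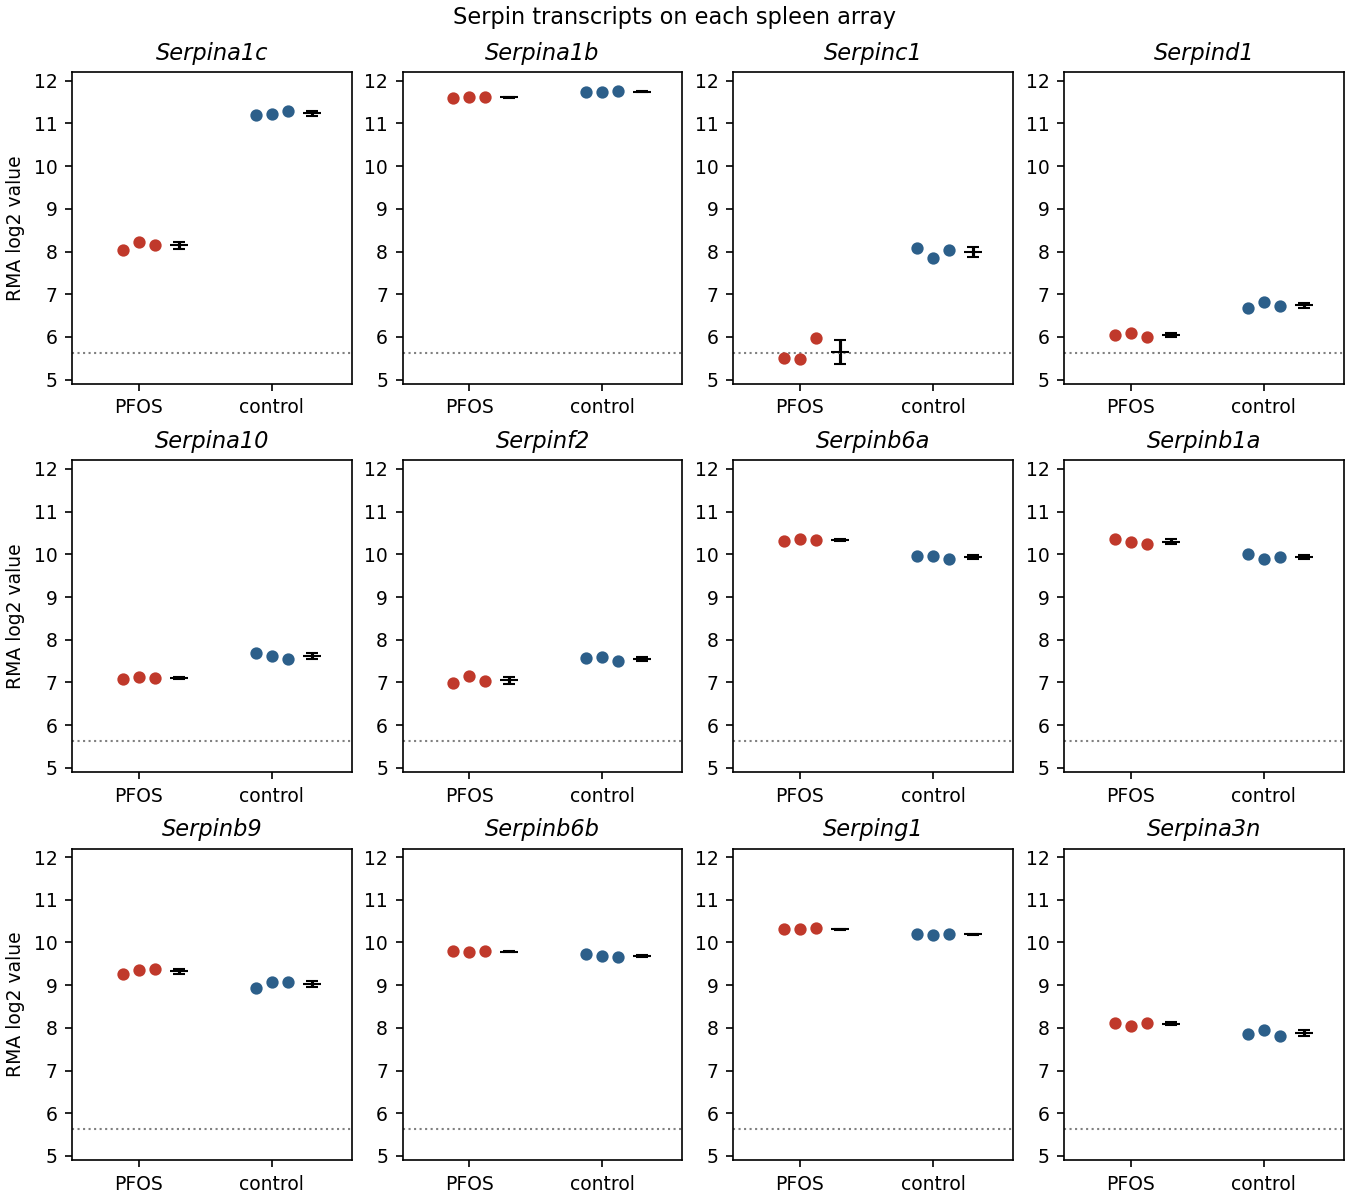
RMA log2 values (vertical axis) of 12 serpin genes on each of the 3 PFOS arrays (red, left) and 3 control arrays (blue, right), with mean and SD in black and the filter floor of 5.62 dotted. Serpina1c and Serpinc1 show the wide separations, with PFOS means of 8.14 and 5.65 against control means of 11.24 and 7.99.

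Among the plasma serpins of other clades, 3 of 5 fell, 1 rose and 1 was not called, where 26% of all genes fell and 40.6% rose. Serpinc1 encodes antithrombin, the inhibitor of thrombin and factor Xa that heparin activates. Its log2 values were 5.50, 5.48 and 5.97 in PFOS spleens, against 8.08, 7.85 and 8.03 in control spleens. PFOS replicates 1 and 2 were under the filter floor of 5.62 and PFOS replicate 3 was above it, while all control arrays were well above. The change was -2.33 ± 0.13, or 5.04-fold lower (limma adjusted p = 4.59e-06), the 30th largest fall of all genes.

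Serpind1, or heparin cofactor II, which inhibits thrombin, had 6.05, 6.10 and 6.00 in PFOS spleens and 6.69, 6.81 and 6.72 in control spleens. It fell by 0.69 ± 0.04 (limma adjusted p = 5.27e-06). Serpinf2, the alpha-2-antiplasmin that inhibits plasmin, had 6.99, 7.14 and 7.03 in PFOS spleens and 7.57, 7.59 and 7.51 in control spleens. It fell by 0.50 ± 0.05 (limma adjusted p = 4.95e-05), and neither gene's groups overlapped. With arrays scaled on the labelling spikes, Serpinf2 and Serpina10 were no longer called (limma adjusted p = 0.571 and 0.439).

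Serpinf1, or PEDF, a serpin that does not inhibit proteases, gave a different answer for each of its probe sets. The set with the higher mean had 6.17, 6.27 and 6.06 in PFOS spleens and 6.14, 6.33 and 6.13 in control spleens, so the groups overlapped (change -0.03 ± 0.07, limma adjusted p = 0.696). The other set had 5.30, 5.25 and 5.30 in PFOS spleens and 5.94, 5.97 and 6.02 in control spleens, a change of -0.69 ± 0.04 in the comparison of all probe sets (limma adjusted p = 4.4e-06). Serping1, the C1 inhibitor that restrains the complement proteases C1r and C1s, had 10.31, 10.31 and 10.33 in PFOS spleens, against 10.20, 10.18 and 10.21 in control spleens. Its rise of 0.12 ± 0.02 (limma adjusted p = 0.00272) was lost with scaling on ribosomal protein genes (limma adjusted p = 0.647).

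Markers of several cell types moved with these falls. For comparison, 26% of all genes tested were lower and 40.6% higher. Of 20 measured hepatocyte markers, 17 were lower and 1 higher, with a median change of -3.05. Their mean level ranged from 5.33 to 5.40 on PFOS arrays and from 8.16 to 8.18 on control arrays, and 12 of the 20 had a PFOS mean under the filter floor of 5.62. Alb, which encodes albumin, lay at 5.82 to 5.93 in PFOS spleens and at 10.97 to 11.07 in control spleens. These 12 passed the filter through the control arrays, so the median describes only the markers that passed. Pancreas markers were lower in 7 of 8 cases, with a median of -0.55 and mean levels of 6.57 to 6.68 in PFOS and 7.31 to 7.32 in control. Red cell precursor markers were lower in 12 of 12 cases, at mean levels of 9.55 to 9.57 in PFOS and 11.06 to 11.08 in control. Mitosis genes were lower in 15 of 15 cases, with a median of -1.48. The part of RNA from any of these sources in the changes of Serpina1c, Serpinc1 and the other plasma serpins was not tested.

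Leukocyte serpins of clade B changed by small amounts, and 4 of the 5 tested were higher, against 40.6% of all genes. The count was 3 of 5 with scaling on ribosomal protein genes and 5 of 5 with scaling on the labelling spikes. Serpinb6a, an inhibitor of cathepsin G and other granule proteases found in many cell types, had 10.32, 10.35 and 10.34 in PFOS spleens, against 9.96, 9.96 and 9.89 in control spleens. All PFOS arrays lay above all control arrays, and the rise of 0.40 ± 0.03, or 1.32-fold, was the largest among the serpin genes tested with these probe sets and all 6 arrays (limma adjusted p = 1.72e-05). With the mean over probe sets Serpinb1a rose by 0.41, against 0.40 for Serpinb6a, and without PFOS replicate 1 Serpinb6e rose by 0.42, against 0.41 for Serpinb6a. In the main comparison Serpinb6a ranked 642nd among the rises of 13101 genes. Serpinb6e, whose sole probe set ends in _x_at, rose by 0.36 ± 0.05 (limma adjusted p = 0.000386), and a signal shared between Serpinb6 paralogs cannot be told apart here.

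Serpinb1a, the mouse inhibitor of neutrophil elastase, proteinase 3 and cathepsin G inside leukocytes, had 10.37, 10.28 and 10.24 in PFOS spleens and 10.00, 9.90 and 9.94 in control spleens. The rise was 0.35 ± 0.04 (limma adjusted p = 0.000187), and its second probe set gave 0.47. Neutrophil markers had a mean level of 7.50 to 7.51 in PFOS and 7.99 to 8.02 in control on the same arrays. Of 14 such markers, 10 were lower (71.4%, against 26% of all genes), 2 were higher and 2 were not called. The change of Serpinb1a and the neutrophil list median of -0.51 therefore had opposite signs in the deposited values, though not every marker of the list fell.

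Serpinb9, which protects cytotoxic lymphocytes and dendritic cells from granzyme B, had 9.26, 9.35 and 9.37 in PFOS spleens and 8.94, 9.07 and 9.08 in control spleens. It rose by 0.30 ± 0.05 (limma adjusted p = 0.000976), whereas its second probe set differed by only 0.03 ± 0.03 and was not called (limma adjusted p = 0.447). Serpinb6b had 9.80, 9.77 and 9.79 in PFOS spleens and 9.72, 9.68 and 9.67 in control spleens. Its rise of 0.10 ± 0.03 (limma adjusted p = 0.0114) turned to -0.01 with scaling on ribosomal protein genes (limma adjusted p = 0.835). Serpinb9b had 6.05, 6.08 and 6.06 in PFOS spleens and 6.12, 6.15 and 6.13 in control spleens. Its change of -0.07 ± 0.02 passed the test (limma adjusted p = 0.0304). The call was lost in 5 of the 6 comparisons that left out 1 array, the exception being the one without control replicate 1. It was also lost with a trended, robust variance prior (limma adjusted p = 0.188) and without the filter (limma adjusted p = 0.0546).

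Lists of possible source cells gave the following background. They can be read beside all genes tested, of which 40.6% were higher and 26% lower, with a median change of 0.05. Of the 12 B cell genes tested, 10 rose, with a median change of 0.50. Of the 12 T cell genes, 11 rose, with a median of 0.43 and mean levels of 9.22 to 9.23 in PFOS and 8.79 to 8.81 in control. In the list of NK and cytotoxic T cells, 10 of 16 genes were higher and 2 were lower, with a median of 0.14 and mean levels of 7.83 to 7.85 in PFOS and 7.70 to 7.71 in control. Of 16 macrophage and monocyte markers, 11 were higher, with a median of 0.18 and mean levels of 10.21 on all PFOS arrays and 9.96 to 9.99 on control arrays. Red cell precursor markers fell in 12 of 12 cases, with a median of -1.64. The part of any of these cells in the rise of the clade B serpins, whose median was 0.30, was not tested.

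In the deposited values the clade contrast came down to the sign and size of the medians. The median change was -0.14 for the 5 liver clade A genes and 0.30 for the 5 leukocyte clade B genes, with 0.05 for all genes. The range was -3.09 to 0.22 for the liver clade A genes and -0.07 to 0.40 for the leukocyte clade B genes. With scaling on the labelling spikes both medians were positive, at 0.34 for liver clade A and 0.77 for leukocyte clade B. Without a filter they were -0.18 and 0.15. All 6 clade B genes tested, Serpinb6e included, lie on chromosome 13, and all 6 clade A genes tested lie on chromosome 12.

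Serpins of other roles rose slightly. Serpinh1, or HSP47, the chaperone of collagen folding, had 8.38, 8.22 and 8.22 in PFOS spleens and 8.01, 7.99 and 7.78 in control spleens. It rose by 0.35 ± 0.07 (limma adjusted p = 0.00339), and its second probe set gave 0.40. The collagen genes Col1a1 and Col3a1, picked after their values were seen, moved the opposite way, at -1.06 ± 0.09 and -1.01 ± 0.03. Of the 17 stromal and endothelial markers, 8 were higher (47.1%) and 5 lower (29.4%), near the 40.6% and 26% of all genes. The median of that list was 0.04. Serpini1, or neuroserpin, which inhibits tissue plasminogen activator, had 7.09, 7.10 and 7.07 in PFOS spleens and 6.87, 6.87 and 6.79 in control spleens. Its rise of 0.24 ± 0.03 (limma adjusted p = 0.000315) was matched by 0.20 in a second probe set, whereas its lowest probe set, near the bottom of the array's range, was not called.

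Without any filter, 22 of the 56 serpin probe sets were called higher, 13 lower and 21 not, where limma called 50.8% of all 34945 probe sets with a single symbol, 29.6% as higher and 21.2% as lower. Of the 18 clade A probe sets, 9 were lower and 4 higher, or 50% and 22.2%. Of the 26 clade B probe sets, limma called 13 higher and 0 lower (2 lower at an unadjusted p under 0.05), so 50% were called in all, close to the share over all probe sets. The 31 probe sets under the floor spanned -0.58 to 0.41, with 9 higher (29%), 4 lower (12.9%) and 18 not called.

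**Figure D3:**
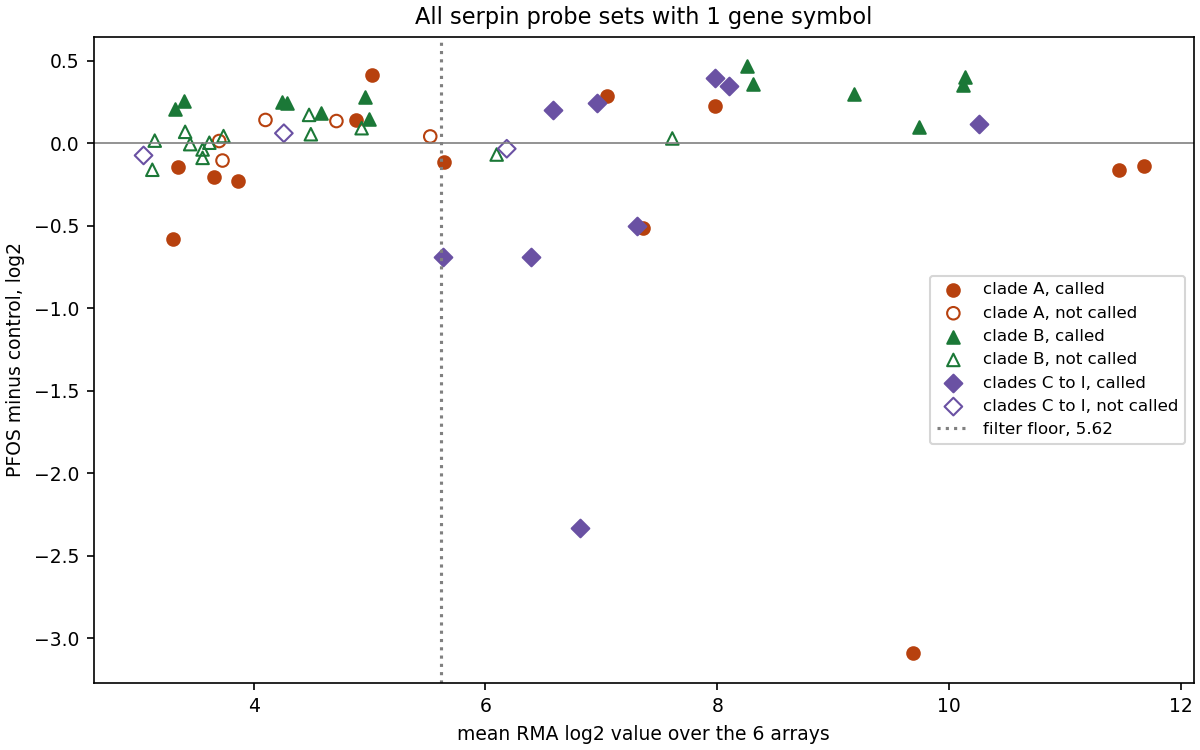
Change in PFOS minus control on the log2 scale (vertical axis) against the mean RMA log2 value over the 6 arrays (horizontal axis) for the 56 serpin probe sets, by clade; filled symbols were called by limma among all probe sets with a single symbol, and the dotted line is the filter floor of 5.62. The probe sets under the floor span -0.58 to 0.41, and Serpina1c and Serpinc1 lie at -3.09 and -2.33.

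The hormone carriers of clade A were among the probe sets under the floor. Serpina7, thyroxine-binding globulin, had 3.00, 3.04 and 3.02 in PFOS spleens and 3.49, 3.55 and 3.75 in control spleens, a change of -0.58 ± 0.06 (limma adjusted p = 0.000251 over all probe sets). Serpina6, corticosteroid-binding globulin, had 3.75, 3.67 and 3.83 in PFOS spleens and 3.96, 4.06 and 3.93 in control spleens (change -0.23 ± 0.05, limma adjusted p = 0.00879). Both lie near the bottom of the array's range, whose lowest value was 2.68, so presence of these transcripts cannot be asserted. The pseudogene Serpina4-ps1 had 1 probe set higher, 1 lower and 1 not called. Serpinb2, or PAI-2, an inhibitor of urokinase known from macrophages, differed by 0.15 ± 0.05 at means of 5.07 in PFOS and 4.92 in control (limma adjusted p = 0.03). Serpina9, known in humans from germinal centre B cells, was not called (change 0.13 ± 0.08, limma adjusted p = 0.212). Neither were Serpinb8 and the pancreatic serpin Serpini2.

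Agreement between probe sets could be examined for 12 genes with several of them. In Serpina1b, Serpinb1a and Serpinh1 every probe set was called in one direction. In Serpinb5, Serpinb9, Serpinb9c, Serpinf1 and Serpini1 some were called, all in one direction, and the rest were not. Serpina4-ps1 had called probe sets of opposite sign, and Serpina12, Serpinb8 and Serpinb12 had none called.

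The proteases that plasma serpins hold in check fell in part with them. Of the 16 genes on this list, 7 were tested. Among these 7, 4 were lower (57.1%) and 1 higher (14.3%), against 26% and 40.6% of all genes, with a list median of -0.24. Plg, plasminogen, the precursor of the target of Serpinf2, had 5.87, 5.84 and 5.83 in PFOS spleens and 8.23, 8.41 and 8.33 in control spleens (change -2.47 ± 0.04, limma adjusted p = 1.6e-08). F2, prothrombin, whose active form is the target of Serpinc1 and Serpind1, had 5.52, 5.53 and 5.90 in PFOS spleens and 7.45, 7.25 and 7.43 in control spleens (change -1.73 ± 0.11, limma adjusted p = 7.17e-06). C1s1, a target of Serping1, rose by 0.23 ± 0.03. The groups overlapped for neither Plg nor F2, and PFOS replicate 3 was the highest PFOS array for F2 as it was for Serpinc1.

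Among cofactors and clearance receptors, 5 of 9 were lower (55.6%) and 2 higher (22.2%), against 26% and 40.6% of all genes. Falls of at least 2-fold were found for Itih4, a heavy chain of the inter-alpha-inhibitor family (-3.55 ± 0.08), Ambp, which encodes the inhibitor bikunin (-2.95 ± 0.06), and Vtn, vitronectin, the cofactor that stabilizes PAI-1 (-2.26 ± 0.07). The PFOS means of these 3 genes were under the filter floor of 5.62. They passed the filter through the control arrays, so the counts describe only the genes that passed. Lrp1, the receptor that clears serpin-protease complexes, rose by 0.11 ± 0.03 (limma adjusted p = 0.00755), and Vldlr, a receptor of the same family, was not called (limma adjusted p = 0.178).

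Proteases of leukocyte granules and lysosomes went both ways, with 7 of 16 higher (43.8%) and 5 lower (31.2%), near the 40.6% and 26% of all genes. Their median was 0.05, with a range of -0.57 to 0.44. For the targets of Serpinb1a, Elane, neutrophil elastase, had 7.06, 7.10 and 7.16 in PFOS spleens and 7.05, 7.01 and 6.93 in control spleens (change 0.11 ± 0.04, limma adjusted p = 0.0383). Prtn3, proteinase 3, fell by 0.46 ± 0.04 and Ctsg, cathepsin G, by 0.57 ± 0.08. Gzmb, granzyme B, the target of Serpinb9, rose by 0.13 ± 0.03 (limma adjusted p = 0.00945), whereas Gzma, granzyme A, fell by 0.52 ± 0.04. Serpinb1a thus rose while these proteases that it inhibits, Elane, Prtn3 and Ctsg, did not share 1 direction, and Serpinb9 rose as Gzmb did.

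**Figure D4:**
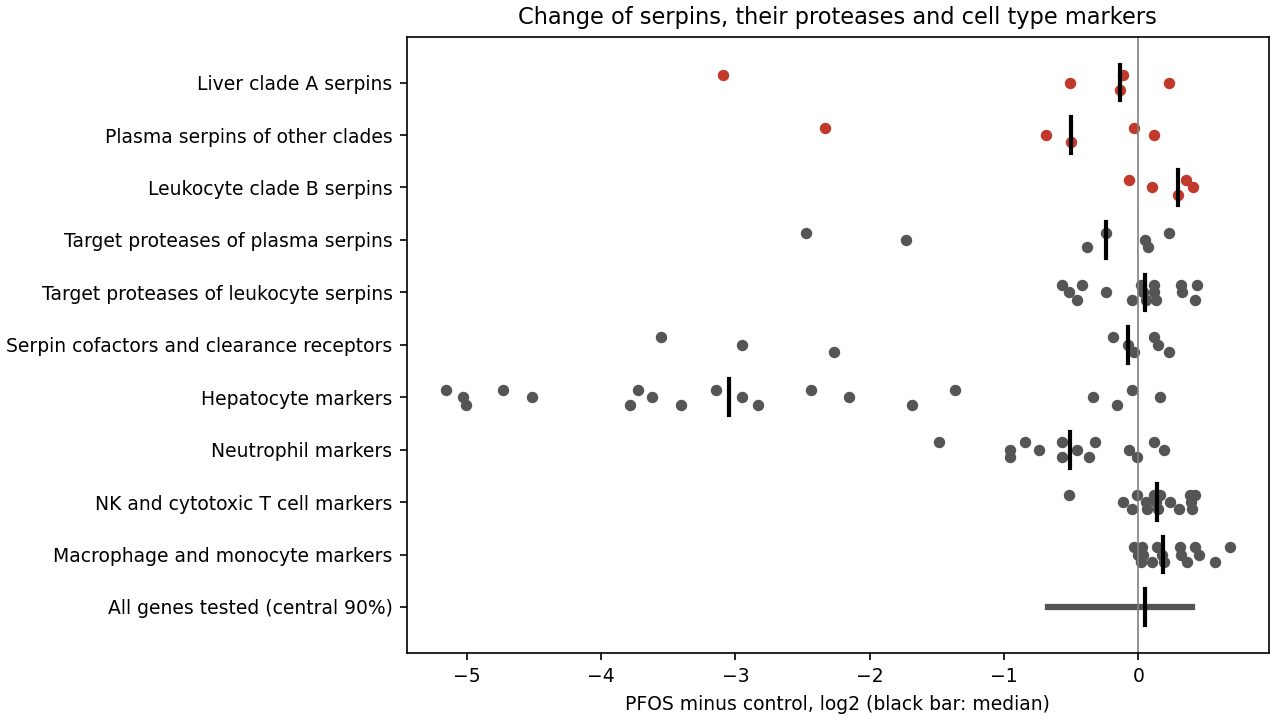
Change in PFOS minus control on the log2 scale (horizontal axis) for each gene (points) of the serpin lists in red and of protease, cofactor and marker lists in grey, with the list median as a black bar; the lowest line gives the central 90% of all genes tested. Medians are -0.14 for liver clade A, -0.50 for plasma serpins of other clades, 0.30 for leukocyte clade B, -3.05 for hepatocyte markers and 0.05 for all genes.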

How the data were processed

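The values that the authors deposited for the 6 arrays are log2 values from RMA (background correction, quantile normalization, probe set summary), per the submitters' processing notes; for its version and any filter or test of the authors, nothing is given in the sources used here. Per the labels' protocols, 6 ug of total RNA per spleen was made into biotin-labelled cRNA. Detection calls were not used here.

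The table held 45101 probe sets, of which 64 were array controls, 34945 had 1 gene symbol, 932 several and 9160 none. Gene comparisons left out probe sets without a single symbol and those with a mean under the 40th percentile, a log2 value of 5.62. The probe set with the highest mean then stood for its gene. PFOS was compared with control by limma 3.58.1 (lmFit and eBayes, two-sided, Benjamini-Hochberg adjustment over all genes, adjusted p under 0.05) in R 4.3.3. A second fit covered every probe set with 1 symbol, unfiltered. Errors are limma's standard errors unless marked SD. The procedure was tested on simulated data. The number of arrays limits the precision.

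All 56 serpin probe sets matched RefSeq genes (GRCm38.p6) by identifier, with 0 symbols changed. RefSeq served for names, chromosomes and promoter sequences, and the array files name no build. Promoters were aligned with Biopython 1.88. Serpins and lists were chosen with earlier results of these data known. The rule for names covered every serpin and list genes changed at least 1.5-fold; Alb, Col1a1, Col3a1, C1s1, Lrp1, Vldlr, Elane, Prtn3, Ctsg, Gzmb and Gzma were chosen after their values were seen.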

Additional observations from a re-analysis of the deposited data

How the results depend on the processing

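The serpin results were recomputed with a replicate block, other filters, scalings, variance priors and weights, other choices of probe set, other thresholds and without each array. The labels number the replicates but do not say that equal numbers are pairs, so the main comparison did not pair them. Deviations of same-numbered arrays correlated at 0.32, 0.14 and 0.097, and those of differently numbered arrays at -0.23 to 0.13. Whether equal numbers mark pairs was not tested. The replicate block moved the count of called genes to 9050 from 8730 and left all 19 serpin calls as they were. Serpina1c and Serpinc1 kept direction and call in every alternative.

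Scaling on ribosomal protein genes turned the median of all genes to -0.054, and scaling on the labelling spikes raised it to 0.53; each adds nearly the same constant to every gene. With the spikes, 3 serpin genes were lower, all 3 from the liver clade A and plasma lists, and the medians were 0.34 for liver clade A, 0.77 for leukocyte clade B and -0.026 for plasma serpins. Serpina11 (0.36), Serpina1b (0.34), Serpinb9b (0.41) and Serpinf1 (0.44) turned to rises. With ribosomal protein genes, the same medians were -0.24, 0.19 and -0.61, and Serpinb6b turned to -0.0063. Quantile normalization gave 0.34 for leukocyte clade B.

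The stricter filter left 5 serpin genes lower, with medians of -0.32 for liver clade A and 0.32 for leukocyte clade B. Without a filter, 17 serpin genes were higher and the leukocyte clade B median was 0.15, since more genes were tested. The mean over probe sets gave 0.16 for leukocyte clade B. Without _s_at, _x_at and _a_at probe sets, leukocyte clade B had 0.20 and plasma serpins -0.69. At a threshold of 2-fold, 391 genes were called, with 2 serpin genes lower, both from the liver clade A and plasma lists, and 0 higher, leukocyte clade B included.

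Leaving out 1 array gave 7967 to 8522 called genes, 7 to 8 serpin genes lower and 10 higher, with 7 lower from the liver and plasma lists and 4 higher from leukocyte clade B. The medians ran from -0.139 to -0.134 for liver clade A, 0.25 to 0.32 for leukocyte clade B and -0.55 to -0.47 for plasma serpins. Depth has no counterpart here, and without detection calls no signal was set against the background of the array.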
